A study of Mus musculus with 2 samples.

Results

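Enteroendocrine cells, the hormone-secreting cells of the gut lining, made up 112 of the 8624 cells that passed the filters in single-cell RNA-seq of mouse small intestine. A barcode was taken as a cell when it had more than 500 genes and under 25% of its UMIs from mitochondrially encoded genes. Enteroendocrine cells were then selected on measured counts. They were the cells with at least 1% of UMIs from 9 hormone and granin genes (Chga, Chgb, Gip, Cck, Sct, Gcg, Nts, Sst and Ghrl), no UMI of the T-cell genes Cd3e and Cd3g, and under 10% of UMIs from 6 goblet genes (Muc2, Tff3, Zg16, Fcgbp, Clca1 and Spink4). The levels of those 9 genes in these cells therefore follow from the choice and are given as a description. A UMI, or unique molecular identifier, tags a single captured transcript, so repeated reads of it were counted once.

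The study asked what happens in the gut epithelium when adiponectin is deleted there. Each genotype was represented by 1 library of dissociated, crypt-enriched small intestinal epithelium, from which dead cells had been removed. Both mouse lines carried the floxed adiponectin gene, and adip fl/fl mice without the recombinase gave the control library. The adip fl/fl-Villi-Cre mice (Adipfl/flpVilli-CreT in the labels), called knockout here, also carried a Cre recombinase driven by the villin promoter, which is active in intestinal epithelial cells. The cells came from male littermates of 8 weeks that were pooled before capture. With 1 library per genotype there was no replicate check and no test between genotypes. Every interval given is a 95% interval that covers counting error only, and a difference between genotypes cannot be told apart from a difference between these 2 libraries.

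Enteroendocrine cells arise from crypt progenitors that switch on the transcription factor Neurog3 for a short time and then Neurod1. They store peptides in dense-core granules together with granins, and release them when receptors on the cell sense food components. The family is usually divided into enterochromaffin cells, which make serotonin with the enzyme tryptophan hydroxylase 1 (Tph1) and often the tachykinin precursor Tac1, and peptidergic cells, which make hormones such as secretin, cholecystokinin, GIP, neurotensin, PYY, somatostatin, ghrelin and the glucagon-family peptides.

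The control library held 55 enteroendocrine cells among 3069 cells, or 1.79% (exact Clopper-Pearson interval 1.35 to 2.33%). The knockout library held 57 among 5555, or 1.03% (0.778 to 1.33%). The knockout share was 0.573 of the control share (exact conditional interval 0.388 to 0.845). Counted among epithelial cells alone, the shares were 2.30% of 2392 and 1.21% of 4697. This lower share rested partly on the mitochondrial limit. Without that limit, 11 further control cells and 2 further knockout cells met the hormone rule, and the ratio became 0.705 (0.487 to 1.02). Fewer enteroendocrine cells and more captured cells of other kinds cannot be told apart in such a share.

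The share of UMIs from the 9 rule genes ran from 1.68% through a median of 9.51% to 46.1% in the control cells, and from 1.14% through 7.19% to 36.9% in the knockout cells. Among the cells that met the T-cell and goblet conditions but not the hormone minimum, the highest share was 0.481% in the control library and 0.413% in the knockout library. Of the cells at 1% or more, the T-cell condition left out 1 in control and 2 in knockout, and the goblet condition left out 0 and 2. The median enteroendocrine cell had 5700 UMIs and 2395 genes in the control library, and 7032 UMIs and 2823 genes in the knockout library. The deepest cells held 33371 and 58635 UMIs. Their mitochondrial share was low, with medians of 5.18 and 4.10% against 18.3 and 17.6% in the other epithelial cells of the same libraries. The libraries had 31 cell barcodes in common, and 1 of these was an enteroendocrine cell, in the control library.

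Genes that the selection did not use carried the same identity. All 13 of 13 further enteroendocrine genes, among them the transcription factors Neurod1, Pax6, Isl1, Rfx6 and Insm1 and the granule proteins Scg2 and Scg5, were at least 4-fold above the other epithelial cells in each library. Their summed level was 8900 CPM (summed UMIs of the genes per 1000000 UMIs of the cells) in control and 7918 CPM in knockout, against 11.2 and 14.7 CPM in the other epithelial cells. Across all genes tested, 11.3% were at least 4-fold above the other epithelial cells in the control library (469 of 4161) and 9.04% in the knockout library (357 of 3950). The 319 genes past that fold in both libraries were 68.0% of the control list and 89.4% of the knockout list. Each UMI marks the 3′ end of a single transcript, so CPM values of different genes can be set side by side without a length correction.

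Apart from enterocyte markers, transcripts of other lineages were few. All 4 fibroblast markers were at 0 in the enteroendocrine cells of both libraries. The 8 tuft markers summed to 9 and 7 UMIs, and the 9 T-cell markers to 12 and 9 UMIs with 7 of them at 0 in both, of which Cd3e and Cd3g were held at 0 by the selection. The 6 Paneth markers had 0 UMIs in control and 11 in knockout, the 7 cycling markers 15 and 32, and the 5 stem-cell markers 7 and 17. Myeloid markers gave 27 and 109 UMIs, most of them of Cd74, which epithelial cells can also express. The 4 B-cell and plasma-cell markers summed to 9 and 13 UMIs. The 6 goblet genes, led by Tff3, summed to 2298 and 2828 CPM against 29498 and 24823 CPM in the other epithelial cells, but a low goblet share was part of the selection. The 9 enterocyte markers, led by the fatty acid binding protein Fabp2, reached 9464 CPM in control and 23562 CPM in knockout against 44786 and 41191 CPM in the other epithelial cells, and they are taken up with the genotype comparison.

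The gene deleted in this study gave no reading of the genotype. Adipoq, which encodes adiponectin, had 0 UMIs in the enteroendocrine cells and in all cells that passed the filters, in both libraries. Vil1, the gene whose promoter drives the Cre, was measured in 40 of 55 control and 50 of 57 knockout enteroendocrine cells (72.7 and 87.7%), and in 25.6 and 35.7% of T cells, which should lack it. Its level was 458 and 817 CPM, against 1379 and 1416 CPM in the other epithelial cells and 123 and 371 CPM in T cells. The median enteroendocrine cell was at 301 and 437 CPM. Cells rich in enterocyte transcripts held 14.1% of the control and 40.2% of the knockout UMIs of these cells, and their part in the Vil1 difference was not tested. The Vil1 shares of cells were taken at full depth, which differed between the libraries. UMIs of both adiponectin receptor genes were few. Adipor1 gave 70.2 CPM in control and 101 CPM in knockout (1.44-fold, 0.897 to 2.34), and Adipor2 gave 160 and 196 CPM (1.23-fold, 0.892 to 1.70). Both intervals include 1, so a difference was not detectable at this depth. Without the cells rich in enterocyte transcripts that are described below, Adipor2 was at 0.618-fold (0.379 to 0.989). At 2000 UMIs per cell, Adipor1 was seen in 9.62 and 14.8% of enteroendocrine cells and in 9.82 and 12.7% of T cells, and Adipor2 in 12 of 52 and 12 of 54 enteroendocrine cells against 61 of 438 and 69 of 529 T cells. Free RNA was not removed, and its part in these shares was not tested.

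Sct, Chga, Gip and Tph1 are shown because the cell groups described next differ in them. Their upstream sequences are shown with each match to the E-box, the core that basic helix-loop-helix factors such as Neurod1 and Neurog3 bind, in capitals. The E-box was searched as CANNTG, which reads the same on both strands. Each line gives the 250 bases before the transcription start in RefSeq on GRCm38.p6, 5′ to 3′ on the strand of the gene.
Sct (secretin), minus strand, chr7:141279134-141279383: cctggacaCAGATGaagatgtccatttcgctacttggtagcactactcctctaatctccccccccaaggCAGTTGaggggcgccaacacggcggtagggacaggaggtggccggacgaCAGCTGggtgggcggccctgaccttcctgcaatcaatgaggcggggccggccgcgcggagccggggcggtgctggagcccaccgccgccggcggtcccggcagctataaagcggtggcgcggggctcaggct
Chga (chromogranin A), plus strand, chr12:102554691-102554940: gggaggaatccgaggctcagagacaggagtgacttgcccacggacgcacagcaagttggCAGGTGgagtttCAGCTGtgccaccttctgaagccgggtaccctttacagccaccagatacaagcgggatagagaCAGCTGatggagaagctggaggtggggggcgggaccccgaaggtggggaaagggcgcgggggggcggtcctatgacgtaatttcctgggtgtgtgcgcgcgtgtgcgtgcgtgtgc
Gip (glucose-dependent insulinotropic polypeptide), plus strand, chr11:96024295-96024544: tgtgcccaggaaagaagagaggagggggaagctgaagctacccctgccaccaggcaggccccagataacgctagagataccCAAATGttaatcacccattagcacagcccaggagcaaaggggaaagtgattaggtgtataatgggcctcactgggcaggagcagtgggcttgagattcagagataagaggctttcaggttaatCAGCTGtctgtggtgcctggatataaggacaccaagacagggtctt
Tph1 (tryptophan hydroxylase 1), minus strand, chr7:46672538-46672787: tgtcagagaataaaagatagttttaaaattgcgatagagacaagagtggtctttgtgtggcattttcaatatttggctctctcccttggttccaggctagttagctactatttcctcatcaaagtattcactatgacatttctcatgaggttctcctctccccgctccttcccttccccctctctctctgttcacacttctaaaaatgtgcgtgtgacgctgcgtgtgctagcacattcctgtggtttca
Sct had 3 matches, at 242, 181 and 132 bases before the start. Chga had 3, at 191, 179 and 116 bases. Gip had 2, at 169 and 46 bases, and Tph1 had 0 before the start shown, which is 1 of 2 listed. Of 32851 mouse start sites, 66.2% held the motif in this window, so a match is common and is a description of letters only. Transcripts of these genes sat largely in the selected cells, which for the rule genes Sct, Chga and Gip follows from the choice. In the control library 83.1% of Sct UMIs, 84.1% of Chga UMIs and 95.1% of Gip UMIs of the cells that passed came from enteroendocrine cells. In the knockout library the shares were 72.5, 64.9 and 93.4%. For Tph1, which the rule did not use, they were 98.2% in control and 91.0% in knockout.

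Cells with Tph1 and cells rich in peptides other than secretin overlapped little. Apart from Pyy these peptides are rule genes, so the division is partly set by the selection and is a description. Tph1 was not used in the selection, and cells with at least 2 of its UMIs numbered 26 of 55 in control (47.3%, 33.7 to 61.2%) and 30 of 57 in knockout (52.6%, 39.0 to 66.0%). Few cells lay near that limit. In control 27 cells had 0 Tph1 UMIs, 2 had 1 and 1 had 2, and in knockout 26 had 0, 1 had 1 and 2 had 2. The median Tph1 count of the cells above the limit was 24.5 in control and 26.5 in knockout. When every cell was thinned to 2000 UMIs, Tph1 was seen in 26 of 52 enteroendocrine cells in control (35.8 to 64.2%) and in 30 of 54 in knockout (41.4 to 69.1%). The share was 0.0454 and 0.227% in the other epithelial cells and 0.228 and 0.378% in T cells, which should lack the gene. Median depths before thinning were 5700, 4611 and 5378 UMIs for these 3 kinds of cell in control, and 7032, 4596 and 4735 in knockout. The shares in enteroendocrine cells were thus far above that background, and the genotypes overlapped.

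**Figure D1:**
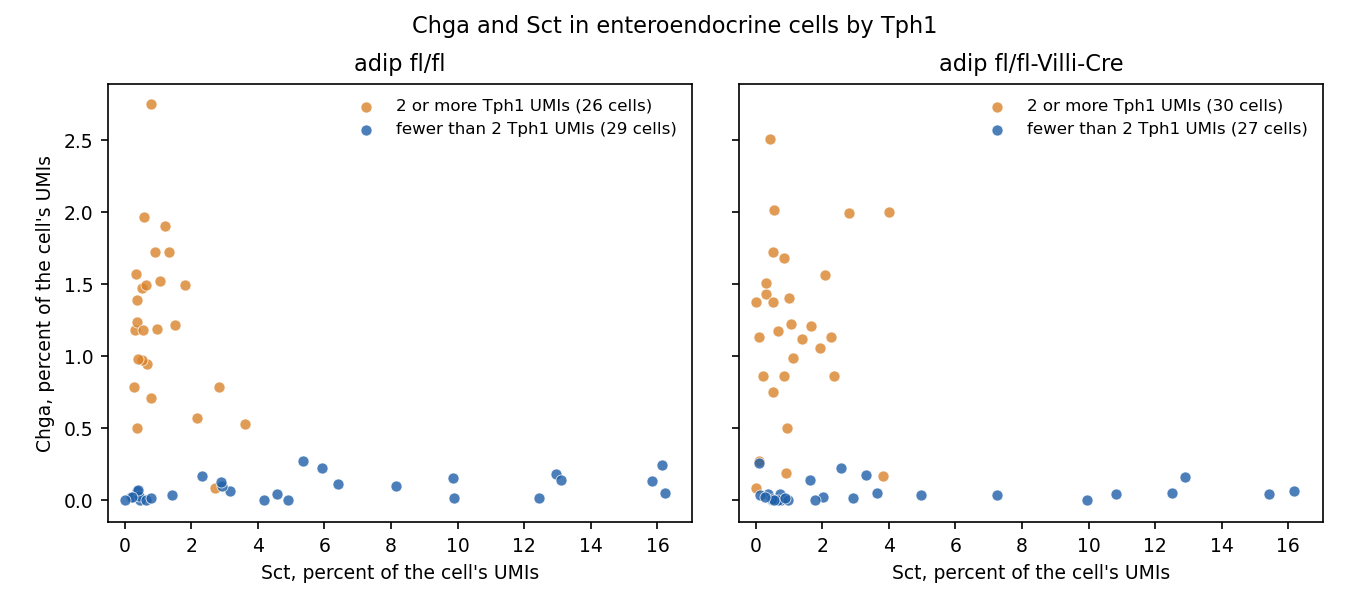
Share of each enteroendocrine cell's UMIs from Chga (vertical axis, percent) against Sct (horizontal axis, percent) in the control and knockout libraries, 1 point per cell, coloured by whether the cell had at least 2 Tph1 UMIs. In both libraries the cells without Tph1 lie at low Chga, at most 0.273% in control and 0.259% in knockout, and spread along the Sct axis.

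Granin and secretin levels differed by Tph1 class. Chga, the granule protein chromogranin A, took a median of 1.20% of the UMIs of a Tph1 cell in control against 0.0631% in the other enteroendocrine cells, and 1.19 against 0.0379% in knockout. Chgb, its relative, took 2.92 against 0.253% and 3.14 against 0.331%. Sct showed the opposite order, with 0.731 against 4.17% in control and 0.865 against 1.80% in knockout. Sct was nevertheless measured in all 55 control cells and in 55 of 57 knockout cells. At 2000 UMIs per cell, Sct was seen in 98.1 and 96.3% of enteroendocrine cells. The shares were 13.6 and 16.7% in other epithelial cells and 1.83 and 3.78% in T cells. Chga, Chgb and Sct are rule genes, and a cell with few other hormone transcripts could be selected only through them. Likewise, a cell with few granin transcripts could be selected only through a peptide of the rule. The split of granins and peptides is therefore a description. These medians are over cells within a library, and cells are not replicates.

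The Tph1 cells expressed a set of genes that the peptide cells almost lacked. The 10 genes with the largest fold, taken as the lower of both libraries, were Reg4, Afp, Tac1, Tpbg, Rgs2, Cartpt, Lmx1a, Ccnd2, Ambp and Kcnc1. Reg4, a secreted lectin of the Reg family, had 3576 UMIs in control Tph1 cells and 0 in the other cells, and 5472 against 1 in knockout. Set against a floor of 3 UMIs, the control fold is at least 1251. The knockout ratio over that 1 UMI is 6433, with a counting interval of 1154 to 254143, and 2144 against the same floor. Reg4 reached 17749 and 22660 CPM in Tph1 cells. It was measured in 19 of 55 control and 24 of 57 knockout cells.

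Afp, the fetal serum protein alpha-fetoprotein, had 587 UMIs in control Tph1 cells and 1221 in knockout, with 0 in the other cells of either library. It was measured in only 11 control and 16 knockout cells. Ambp, the precursor of another plasma protein, had 108 against 5 UMIs in control and 144 against 3 in knockout. Tac1, the precursor of substance P, had 265 UMIs against 1 in control and 225 against 2 in knockout, and was measured in 20 of 26 and 24 of 30 Tph1 cells but in 1 of 29 and 2 of 27 others. The neuropeptide gene Cartpt had 118 and 90 UMIs in Tph1 cells and 0 elsewhere, in 10 and 12 cells. Reg4, Afp and Cartpt were therefore measured in only part of the Tph1 cells, and 0 UMIs in a cell does not show that the transcript was absent.

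The remaining members of that set had other roles. Tpbg, a membrane glycoprotein that acts on Wnt signalling, had 149 and 168 UMIs in Tph1 cells and 0 in the others. Rgs2, which limits signalling through G proteins, had 175 against 1 and 212 against 6. Ccnd2, a D-type cyclin, had 292 against 13 and 338 against 8. Kcnc1, a voltage-gated potassium channel, had 77 against 3 and 49 against 3. The cyclin was not accompanied by the cycling markers, which were few in these cells as given above.

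**Figure D2:**
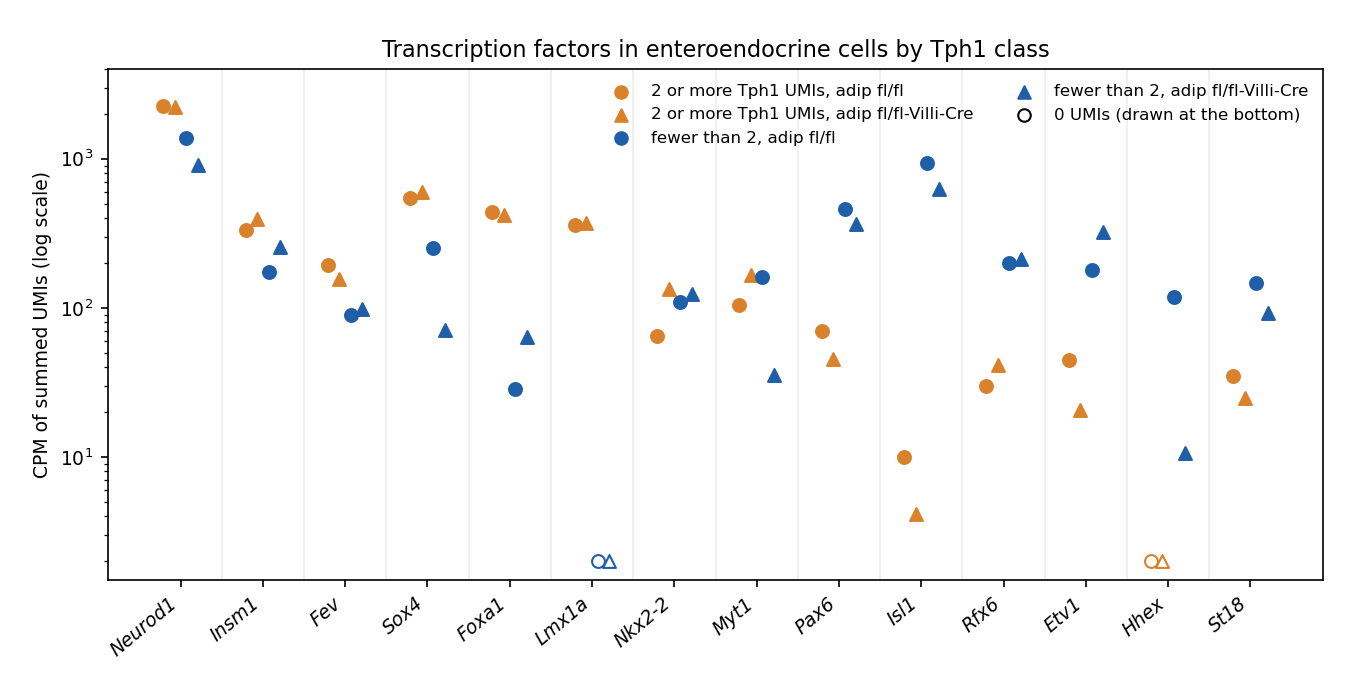
Levels of transcription factor genes in enteroendocrine cells with at least 2 Tph1 UMIs and in the other enteroendocrine cells (CPM on a log axis), for the control (circles) and knockout (triangles) libraries, with open symbols at the bottom for 0 UMIs. Lmx1a, Foxa1 and Sox4 lie on the Tph1 side and Isl1, Pax6, Rfx6 and Etv1 on the other side in both libraries, while Neurod1 is high in both kinds of cell.

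Across all genes with at least 20 UMIs, 6.32% (413 of 6537) were higher in the Tph1 cells and 2.52% (165) lower, with the counting interval on that side of 1 in both libraries. By the same reading, of 21 transcription factors listed and 18 with enough UMIs, 5 were higher in the Tph1 cells, 6 were lower and 7 were on neither side. Neurod1, the shared driver of the lineage, was measured in 53 of 55 control and 54 of 57 knockout cells, at 2263 CPM in Tph1 cells and 1371 CPM in the others in control, and 2207 and 902 CPM in knockout. Lmx1a, a factor of enterochromaffin cells, had 72 and 89 UMIs in Tph1 cells and 0 in the other cells. Foxa1, a pioneer factor, was at 437 CPM in Tph1 cells against 28.4 CPM in control, and 418 against 63.4 CPM in knockout. Sox4 was at 541 against 251 CPM and 596 against 70.4 CPM. Insm1 was at 333 against 175 CPM and 393 against 257 CPM. Fev was at 194 against 89.9 CPM in control and 157 against 98.6 CPM in knockout, where the interval of the fold (0.954 to 2.70) included 1. Myt1 was at 0.648-fold in control, with an interval of 0.358 to 1.15 that included 1, and at 4.70-fold in knockout.

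Other factors were lower in the Tph1 cells. Isl1, a LIM-homeodomain factor, was at 9.93 CPM in control Tph1 cells and 932 CPM in the others, and at 4.14 against 631 CPM in knockout. Pax6 was at 69.5 against 459 CPM and 45.6 against 366 CPM. Rfx6 was at 29.8 against 199 CPM and 41.4 against 211 CPM, and Etv1 at 44.7 against 180 CPM and 20.7 against 321 CPM. Hhex, a factor of somatostatin cells, was at 0 in Tph1 cells and at 118 CPM in the others in control, but only at 10.6 CPM (3 UMIs) in knockout, the library with little Sst, where the interval of the fold (0 to 2.85) included 1.

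Of 14 processing and granule genes, 13 had enough UMIs, and 5 were higher in the Tph1 cells, 4 lower and 4 on neither side. The convertase Pcsk1, which cuts prohormones, was at 1147 CPM in Tph1 cells against 274 CPM in control and 1404 against 215 CPM in knockout. The trimming enzyme Cpe went the other way, at 953 against 1622 CPM and 808 against 1613 CPM. Scg2, a secretogranin, was at 94.3 against 1499 CPM and 24.8 against 1046 CPM, and the calcium sensor Scgn at 39.7 against 340 CPM and 4.14 against 289 CPM. Of 17 exocytosis genes, 14 had enough UMIs, with 4 higher in the Tph1 cells, 0 lower and 10 on neither side. Snap25, a membrane-fusion protein, was at 764 against 94.6 CPM and 683 against 42.3 CPM. The calcium sensor Syt7 was at 859 against 270 CPM and 754 against 116 CPM, and the vesicle protein Rab3c at 213 against 4.73 CPM and 352 against 3.52 CPM. Slc18a1, which loads serotonin into vesicles, was at 665 against 61.5 CPM in control and 679 against 88.1 CPM in knockout.

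Of 20 nutrient and other receptors, 10 had enough UMIs, with 3 higher in the Tph1 cells, 3 lower and 4 on neither side. Of 10 excitability genes, 7 had enough UMIs, with 2 higher, 1 lower and 4 on neither side. The irritant-gated channel Trpa1 had 46 and 77 UMIs in Tph1 cells and 0 in the others, and the sodium channel Scn3a was at 680 against 89.9 CPM and 588 against 66.9 CPM. Ffar2, a receptor for short-chain fatty acids, was at 323 against 52.0 CPM and 315 against 24.7 CPM. Ffar1, a receptor for long-chain fatty acids, was on the peptide side, at 39.7 against 222 CPM and 16.6 against 151 CPM. Abcc8, the sulfonylurea receptor of the ATP-sensitive potassium channel, was at 4.96 against 260 CPM in control and 0 against 123 CPM in knockout. The cannabinoid receptor Cnr1 was at 0 in Tph1 cells and at 99.3 and 102 CPM in the others, and the lipid receptor Gpr119 had 0 UMIs against 10 and 18. The calcium channel Cacna1a had its order turned between libraries, at 467 against 624 CPM in control and 621 against 324 CPM in knockout.

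Summed over whole lists, most secretory gene groups stood above the other epithelial cells. The 14 processing and granule genes summed to 5383 CPM in control and 4669 CPM in knockout, against 18.7 and 25.7 CPM. The 21 transcription factors summed to 4504 and 4066 CPM against 48.3 and 56.3 CPM, the 17 exocytosis genes to 2364 and 1911 CPM against 76.4 and 76.8 CPM, and the 10 excitability genes to 1860 and 1408 CPM against 8.30 and 7.01 CPM. The 11 serotonin genes were at 3657 and 4083 CPM against 1209 and 1243 CPM. The 20 receptors summed to less, at 1400 and 2225 CPM against 2323 and 2875 CPM, with Slc5a1 the most abundant. Of 7 receptors tested singly, 5 were at least 4-fold above the other epithelial cells in each library. At least 4-fold below were 1 in control and 0 in knockout. The 8 adiponectin-axis genes summed to a like level, 492 and 525 CPM against 557 and 500 CPM, but went both ways. Adipor1 was at 0.644 and 0.948-fold of the other epithelial cells and Adipor2 at 0.467 and 0.656-fold. Appl1 was at 2.40 and 2.32-fold and Appl2 at 2.94 and 2.73-fold. Most of these lists were drawn up for this cell type. The strongest single genes by the lower fold of both libraries were Afp, Reg4, Snap25, Cartpt, Ambp, Resp18, Rbp4, Pclo, Tph1, Adgrg4, Scg5, Pax6, Pyy, Stxbp5l and Scg2, from 4642-fold for Afp to 1002-fold for Scg2, with a floor of 3 UMIs where the other cells had fewer. Rbp4, the plasma retinol carrier, was at 613 and 499 CPM. Adgrg4, an adhesion receptor, was at 312 and 333 CPM in 37 and 44 cells, which makes it one of the more evenly spread of these genes.

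**Figure D3:**
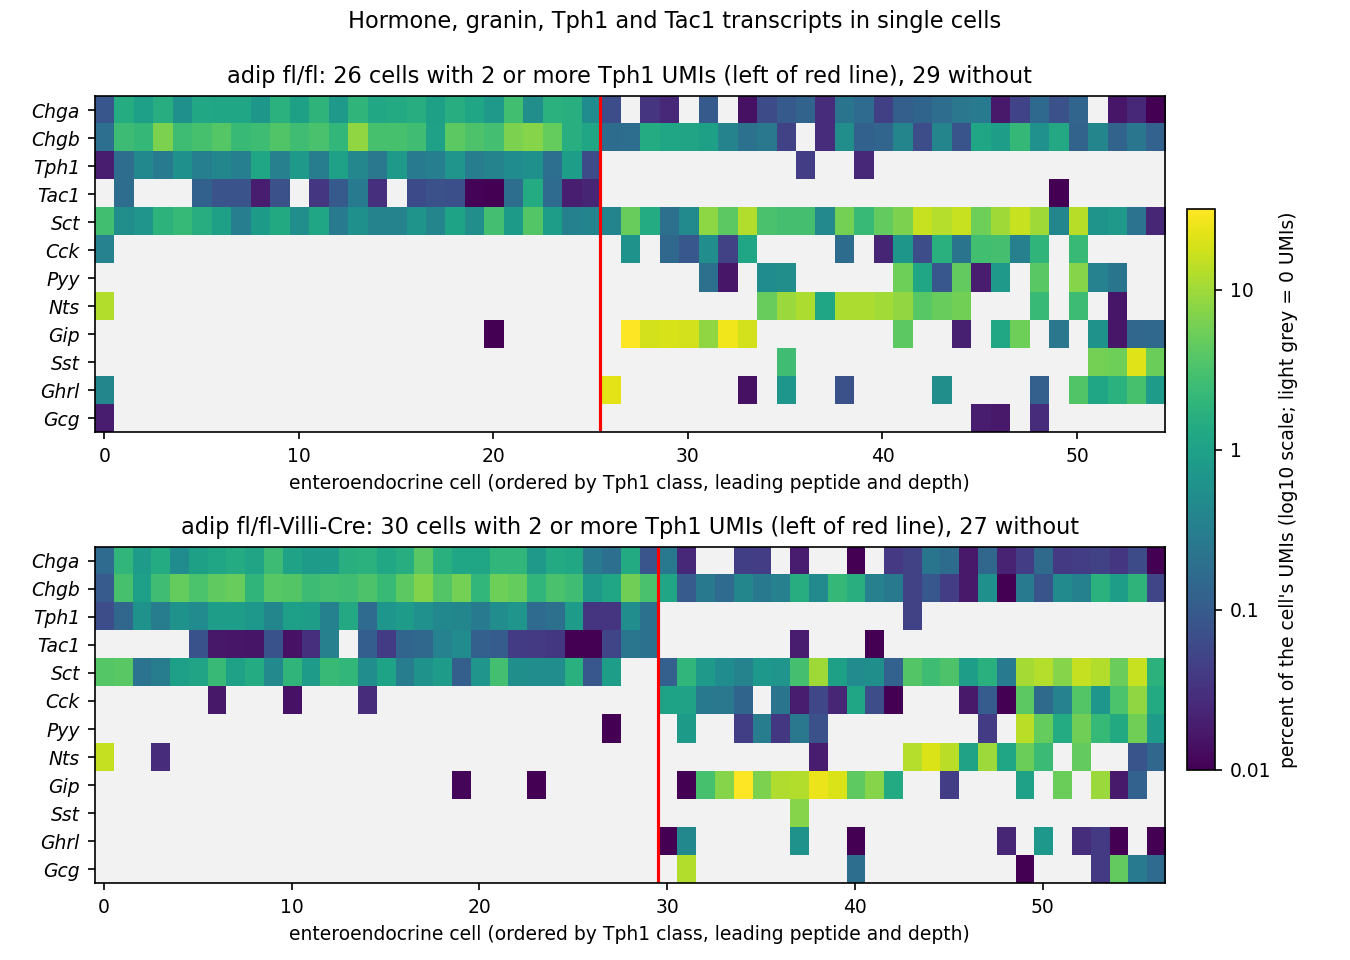
Share of UMIs from each peptide, granin and transmitter gene in every enteroendocrine cell (colour on a log scale, percent of the cell's UMIs, light grey for 0 UMIs), with 1 column per cell and 1 row per gene, for the control and knockout libraries. Tph1, Chga and Chgb fill the left of the red line in each panel, and the right is a patchwork in which Sct runs through cells rich in Gip, Nts, Cck or Pyy.

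Peptide transcripts overlapped within cells. Of 8 peptide genes (the 7 peptides of the rule and Pyy), at least 2 each took 1% or more of the UMIs in 24 control cells (43.6%) and 17 knockout cells (29.8%). At least 3 did so in 9 cells of each library. Sct passed 1% in 29 and 26 cells, Nts in 14 and 10, Gip in 10 and 14, Cck in 6 and 8, Pyy in 5 and 7, Sst in 5 and 1, Ghrl in 5 and 0, and Gcg in 0 and 2. Sct passed 1% in more cells than any other peptide, so some pairs with it would arise from that frequency alone. Nts and Sct passed it together in 13 control and 8 knockout cells. Gip and Sct did so in 8 and 5, Cck and Sct in 6 and 6, and Pyy and Sct in 5 and 7. Gip and Nts met in 1 cell of each library. Whether any pair met more or less often than the single counts would give was not tested.

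Single cells show how far the mixing went. A control cell of 13749 UMIs had 1801 UMIs of Sct, 1009 of Pyy, 489 of Ghrl, 350 of Nts and 320 of Cck. A knockout cell of 13804 UMIs had 1874 of Pyy, 1495 of Sct, 720 of Nts, 568 of Cck and 139 of Gip. These were the cells with 5 peptides past 1% in their libraries. Whether such a barcode held a single cell was not tested. Among the cells below the Tph1 limit, the leading peptide was Sct in 9, Nts in 8, Gip in 7, Sst in 4 and Ghrl in 1 of the control cells. In knockout it was Gip in 11, Sct in 7, Nts in 6, and Cck, Gcg and Pyy in 1 each. Gip was seen in 16 of 29 and 18 of 27 of these cells but in 1 of 26 and 2 of 30 Tph1 cells, and Pyy in 14 and 15 of them but in 0 and 1 Tph1 cells. The division had exceptions, since 1 Nts-rich cell in each library had exactly 2 Tph1 UMIs, with 1328 Nts UMIs of 10488 in control and 463 of 2957 in knockout.

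Rare products came from a handful of cells. Somatostatin had 4834 UMIs in 5 control cells and 385 UMIs in 1 knockout cell. The control Sst cells held 163 of 2799 UMIs, 325 of 6152, 2590 of 11999 and 1702 of 33371 from Sst, and a cell led by Nts held 54. The richer pair also held 85 and 29 UMIs of Iapp, 11 and 13 of Hhex and 361 and 283 of Ghrl. The knockout Sst transcripts came from a cell that also held 656 Gip UMIs among 5182. Ghrelin had 6163 UMIs in control against 127 in knockout, and 77.9% of the control UMIs came from a cell with 4799 of its 21028 UMIs from Ghrl. Proglucagon had 7 UMIs in control against 2134 in knockout, of which 1524 and 517 came from cells of 12025 and 11240 UMIs. The sums of Sst, Ghrl, Gcg and Iapp therefore rested mostly on a few cells in each library, and a genotype difference cannot be read from them. Whether the capture of such cells or the genotype set these sums was not tested.

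Neurog3 was nearly absent from the selected cells. It had 0 UMIs in control and 22 in knockout, of which 21 lay in 1 cell of 9575 UMIs that also had 20 UMIs of Tph1, 20 of Tac1, 298 of Chgb, 7 of Fev, 23 of Neurod1 and 0 of Sct. Outside the selection, 1 control cell had 41 Neurog3 UMIs and 7 knockout cells had 37, 30, 21, 16, 14, 10 and 1. None of these reached the hormone minimum. In the knockout library 14.6% of Neurog3 UMIs lay in the enteroendocrine cells, so cells at the Neurog3 stage fell mostly outside the rule.

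Over all enteroendocrine cells, the folds of knockout over control lay between 0.640 and 1.85 for the main products, and several turned or moved when the cells rich in enterocyte transcripts, described below, were left out. Tph1 was at 2107 CPM in control and 2061 CPM in knockout, 0.978-fold (0.894 to 1.07). Sct was at 30830 and 21754 CPM (0.706-fold), Gip at 20371 and 17732 (0.870-fold), Chgb at 17911 and 16910 (0.944-fold) and Chga at 6182 and 5554 (0.898-fold). Nts was at 12840 and 8223 CPM (0.640-fold), and Cck at 3063 and 5678 CPM (1.85-fold). Among genes outside the rule, Pyy was at 5647 and 7140 CPM (1.26-fold, 1.20 to 1.33), with 43.3% of its UMIs in control and 1874 of 3751 UMIs in knockout in a single cell. Tac1 was at 644 and 432 CPM (0.671-fold, 0.559 to 0.804), but 55.3% of the control UMIs came from 1 cell, and without the richest cell of each library the fold was 1.21. Without the richest cell of each library Gip was at 1.01-fold, while Pyy (1.11), Cck (1.61), Nts (0.662) and Sct (0.670) kept their order. Without the enterocyte-rich cells, Tph1 was at 1.36-fold (1.24 to 1.49), Chgb at 1.23-fold (1.19 to 1.27) and Chga at 1.19-fold (1.12 to 1.26), each above 1 and not below it. Cck was then at 2.81-fold, Pyy at 1.79-fold, Nts at 0.761-fold, Gip at 0.942-fold and Sct at 0.982-fold (0.957 to 1.01).

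In all, 139 of 1943 genes tested (7.15%) were at least 2-fold higher in the knockout enteroendocrine cells and 24 (1.24%) at least 2-fold lower. The median difference over all genes tested was 0.10 on the log2 scale. Of the genes of the secretory programme, 0 of 12 processing and granule genes, 0 of 12 transcription factors and 0 of 8 exocytosis genes were past 2-fold in either direction, with medians of -0.26, -0.10 and -0.38 on the same scale. Abcc8, from 136 CPM in control to 66.6 CPM in knockout (0.491-fold, 0.312 to 0.763), was the only excitability gene past it of 5 tested, and it was at 0.697-fold (0.423 to 1.13) without the cells rich in enterocyte transcripts. Among the lists, enterocyte markers held the most genes past 2-fold, with 6 of 9 higher in knockout. Of the goblet markers 2 of 4 were higher, of the nutrient receptors 1 of 6 (the sodium-glucose transporter Slc5a1) and of the serotonin list 2 of 7 (the oxidases Maoa and Maob). Slc5a1, Maoa and Maob are also transcribed by enterocytes, and each was at a higher level in the other epithelial cells than in the enteroendocrine cells. Without the cells rich in enterocyte transcripts all 3 were below 1-fold, Slc5a1 at 0.844, Maoa at 0.496 and Maob at 0.726. The goblet list as a sum was at 1.23-fold (1.13 to 1.34) over all cells and at 1.41-fold (1.29 to 1.55) without those cells. Zg16 was then at 2.36-fold, Muc2 at 1.93-fold, Tff3 at 1.33-fold and Fcgbp at 0.937-fold.

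**Figure D4:**
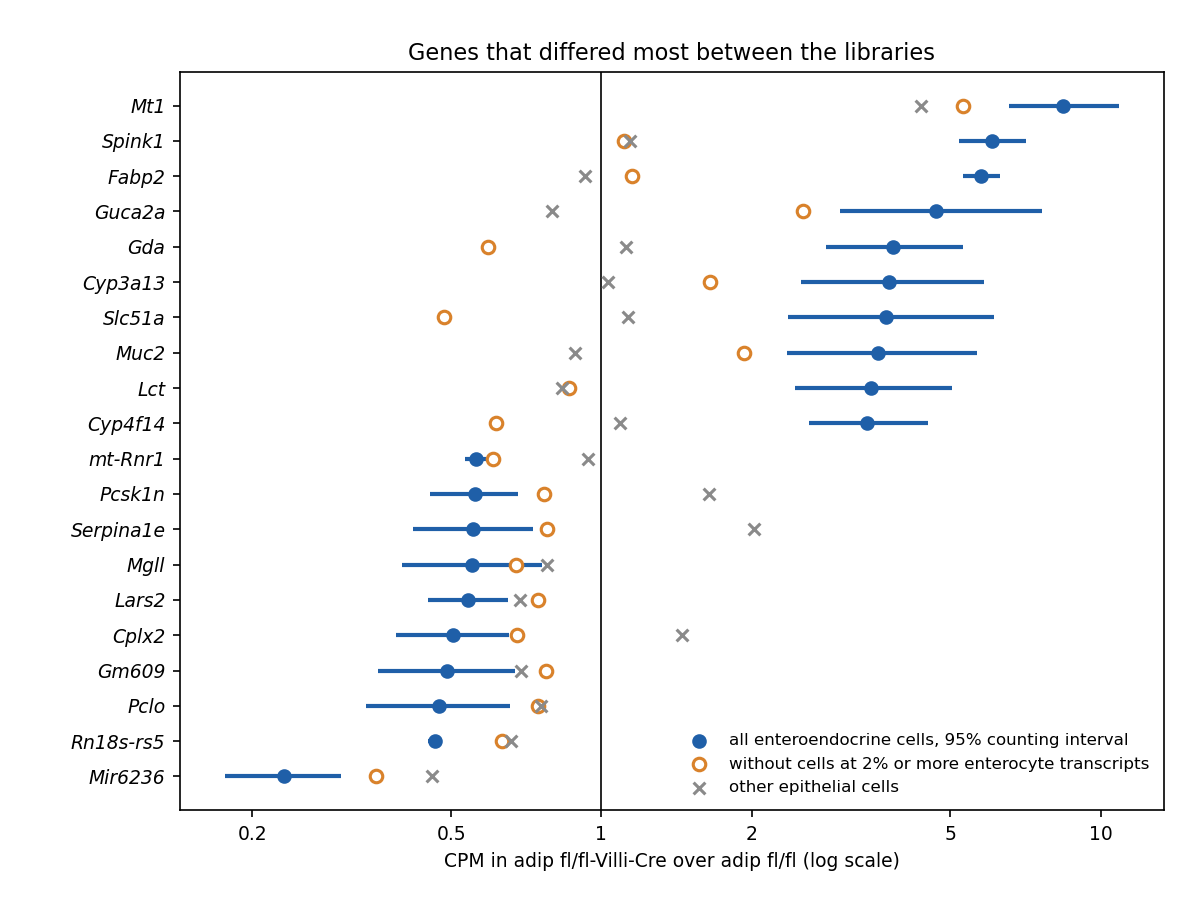
Fold of knockout over control in enteroendocrine cells (log axis, summed CPM) for the 10 genes with the largest and the 10 with the smallest fold outside the rule genes, with 95% counting intervals, beside the same fold without cells rich in enterocyte transcripts and in the other epithelial cells. Mt1 stays at 5.30-fold without those cells, whereas Fabp2 moves from 5.77-fold to 1.15-fold.

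Outside the rule genes, the 10 with the largest fold were Mt1, Spink1, Fabp2, Guca2a, Gda, Cyp3a13, Slc51a, Muc2, Lct and Cyp4f14. Fabp2, which carries fatty acids in enterocytes, was at 1547 CPM in control and 8929 CPM in knockout (5.77-fold, 5.31 to 6.28), and at 0.926-fold in the other epithelial cells. Spink1, a trypsin inhibitor, was at 458 and 2777 CPM (6.07-fold), and Lct, the brush-border lactase, at 94.4 and 327 CPM (3.47-fold). The bile-salt transporter subunit Slc51a was 3.72-fold higher and the guanylin gene Guca2a 4.68-fold. Muc2, the goblet mucin, was 3.58-fold higher, with 60.2% of its knockout UMIs in 1 cell and 1.57-fold without the richest cell of each library. Fabp2, Lct and Slc51a are best known from absorptive cells and Muc2 from goblet cells.

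Much of the enterocyte-marker signal lay in a few barcodes, which in knockout were deep. Enterocyte markers took at least 2% of the UMIs in 5 control and 9 knockout enteroendocrine cells. Those cells held 58.4% of the enterocyte-marker UMIs of all enteroendocrine cells in control and 87.7% in knockout, and 14.1 and 40.2% of all their UMIs. Their median depth was 6152 UMIs in control and 23319 UMIs in knockout, against 5502.5 and 6773 UMIs in the remaining cells. In knockout they had a median of 5111 genes and a hormone share of 2.25%, against 2646 genes and 7.65% in the rest. All 4 knockout cells with under 2% of UMIs from the rule genes were among them, and those 4 held 23.7% of the knockout UMIs. Whether these barcodes held more than 1 cell was not tested.

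**Figure D5:**
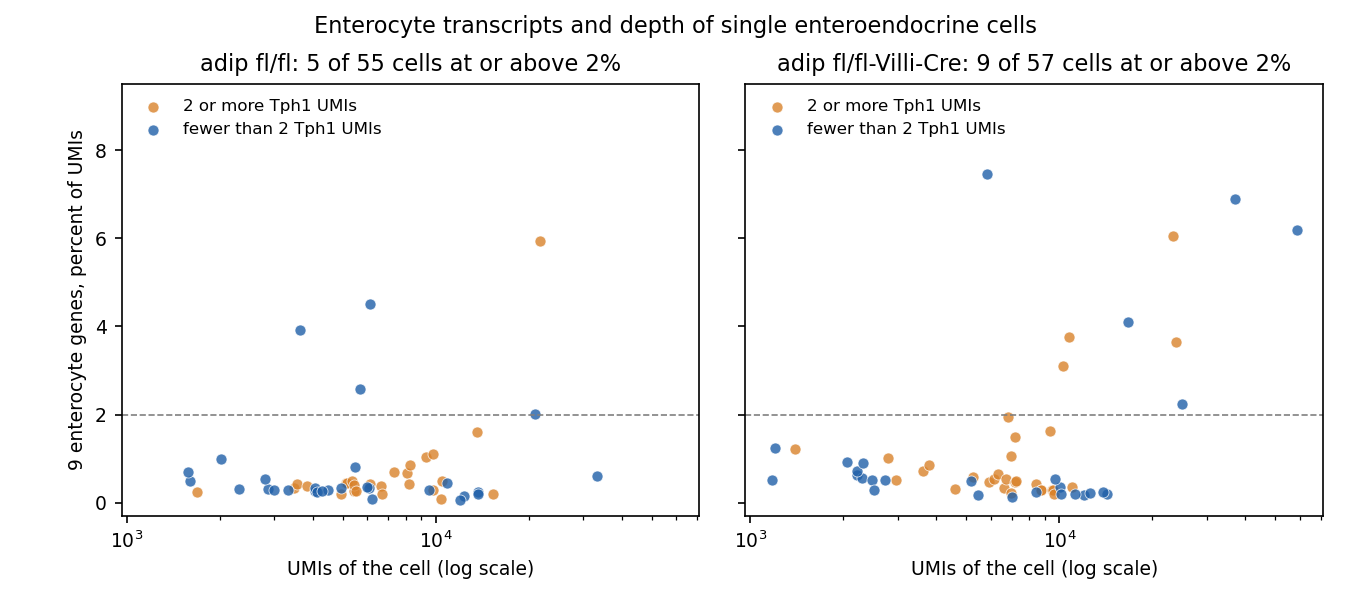
Share of UMIs from the 9 enterocyte markers (vertical axis, percent) against total UMIs (horizontal axis, log scale) for each enteroendocrine cell of the control and knockout libraries. The 9 knockout cells at or above 2% run up to 58635 UMIs with a median of 23319 UMIs, and the 5 control cells at or above it have a median of 6152 UMIs.

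Without those cells the genotype difference changed character. Of the 139 genes, 16 were still at least 2-fold higher, 12 of them with at least 100 CPM in the higher library and 20 UMIs in all, and 70 were above 1-fold, and their median went from 2.57-fold to 1.01-fold. In the other epithelial cells the median of the same genes was 1.02-fold, with 4 of them at 2-fold or more. In control, 135 of the 139 were lower in the enteroendocrine cells than in the other epithelial cells. The cells left out were chosen by their enterocyte markers, so a smaller marker sum follows from that choice. Enterocyte markers as a sum went from 2.49-fold (2.40 to 2.58) to 1.06-fold (0.984 to 1.13). Fabp2 became 1.15-fold, Spink1 1.11-fold, and Lct, Gda, Slc51a and Cyp4f14 were below 1-fold, at 0.863, 0.594, 0.484 and 0.616. Guca2a (2.54-fold), Muc2 (1.93-fold) and Cyp3a13 (1.65-fold) stayed above 1-fold on fewer UMIs, and only the interval of Muc2 (1.14 to 3.34) lay above 1.

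Several secretory lists moved across 1 in the same step. Their summed levels in knockout over control were 0.867-fold (0.819 to 0.919) for processing and granule genes, 0.903-fold (0.848 to 0.961) for transcription factors and 0.809-fold for exocytosis genes over all cells. Without the enterocyte-rich cells they were 1.15-fold (1.08 to 1.23), 1.23-fold (1.15 to 1.32) and 1.10-fold. The excitability genes went from 0.757-fold to 0.978-fold and the serotonin genes from 1.12-fold to 1.34-fold. For the processing, transcription factor and exocytosis lists the order of the genotypes thus depended on whether 14 barcodes in all were counted.

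Mt1 kept its difference. This metallothionein gene, which encodes a metal-binding protein, had 69 UMIs in 19 of 55 control cells and 738 UMIs in 55 of 57 knockout cells. The level was 167 CPM in control and 1405 CPM in knockout (8.41-fold, 6.56 to 10.9). The median cell was at 0 CPM in control and 942 CPM in knockout. Mt1 was 10.8-fold higher in Tph1 cells, 7.22-fold in the other enteroendocrine cells, and 5.30-fold (4.03 to 7.08) without the enterocyte-rich cells. The difference was not particular to this cell type. In the other epithelial cells it was 4.37-fold (550 and 2402 CPM), and in T cells, which are not epithelial, Mt1 was at 37.8 CPM in control and 674 CPM in knockout. Epithelial Vil1 was also higher in the T cells of the knockout library (123 and 371 CPM), and the part of carried-over epithelial RNA in the T-cell value was not tested. Its neighbour in function Mt2, chosen after its value was seen, had 11 UMIs in each library (0.786-fold, 0.309 to 2.00).

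Genes lower in knockout were a mixed set. Mir6236 (0.231-fold), Rn18s-rs5 (0.464-fold), Lars2 (0.541-fold) and mt-Rnr1 (0.560-fold) overlap or resemble ribosomal RNA, and reads may be shared with other copies of that sequence. Rn18s-rs5 took 28203 CPM in control and 13076 CPM in knockout, and it was also lower in the other epithelial cells (0.658-fold). Without the enterocyte-rich cells Mir6236 was at 0.353-fold, Rn18s-rs5 at 0.631-fold, Lars2 at 0.745-fold and mt-Rnr1 at 0.606-fold. The others, too, were named for their fold alone, and no gene group was tested among them. The synaptic proteins Pclo and Cplx2 were at 0.472-fold (0.337 to 0.656) and 0.504-fold (0.388 to 0.652), the granule protein Pcsk1n at 0.557-fold (0.453 to 0.682), and Mgll, which breaks down an endocannabinoid, at 0.551-fold. With the enterocyte-rich cells left out, Pclo was at 0.748-fold (0.522 to 1.06) and Cplx2 at 0.677-fold (0.513 to 0.890). Pcsk1n was then at 0.766-fold (0.619 to 0.946) and Mgll at 0.675-fold (0.474 to 0.953). Gm609 was at 0.490-fold and Serpina1e, a protease inhibitor, at 0.554-fold, and without those cells they were at 0.773-fold (0.552 to 1.08) and 0.777-fold (0.583 to 1.03).

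Over all enteroendocrine cells, mitochondrially encoded transcripts differed gene by gene. The ribosomal RNA gene mt-Rnr1 was at 9689 CPM in control and 5423 CPM in knockout, and mt-Rnr2 at 23047 and 16390 CPM. The complex I gene mt-Nd3 was higher in knockout, at 363 and 782 CPM (2.15-fold, 1.78 to 2.61), and 1.10-fold without the enterocyte-rich cells. It was also higher in the other epithelial cells (611 and 1483 CPM, 2.43-fold) and in T cells (190 and 693 CPM). In the enteroendocrine cells mt-Nd4 was at 1.11-fold (0.576-fold without the enterocyte-rich cells) and mt-Nd5 at 0.779-fold (0.601-fold without them). With those cells left out, most of the mitochondrial genes tested were lower in knockout, from 0.549-fold for mt-Atp6 to 0.684-fold for mt-Rnr2. Only mt-Nd3 and mt-Nd6 (1.17-fold, 0.671 to 2.04) were not. The mitochondrial list as a sum was at 0.859-fold over all cells and at 0.629-fold without the enterocyte-rich cells. A mitochondrial share under 25% was part of how cells were chosen, so these levels are bounded by the filter.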

How the data were processed

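UMI counts were deposited by the authors as 1 10x Genomics matrix per library. According to the labels and file header, reads were converted with bcl2fastq 5.0.1 and counted with Cell Ranger (7.1.0 in the header) on mm10. Depth was 42150623 UMIs in 9791 control barcodes and 63370798 UMIs in 11838 knockout barcodes. The filters left 3069 and 5555 cells, which are fewer than the study counts after filtering. No doublet caller was run and free RNA was not removed.

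Counts were summed over cells and expressed as CPM with Python 3.11.15, numpy 2.4.6, pandas 2.3.3 and scipy 1.17.1. Fold intervals were exact conditional intervals and shares had exact Clopper-Pearson intervals. Where a group had fewer than 3 UMIs, the floor was 3 UMIs over the group. Genes tested between genotypes had at least 100 CPM in the higher library and 20 UMIs in all. Genes tested against other epithelial cells had at least 50 CPM in either and 20 UMIs in all, with the 9 rule genes left out. Epithelial cells had UMIs of keratins, Epcam, Vil1 or Cdh1 and none of Ptprc.

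Named genes came from fixed lists or from rankings by fold. The rankings gave the 10 largest folds in each direction between genotypes, the 15 largest over other epithelial cells, and the 10 largest with Tph1. The ranking between genotypes left out the rule genes. It took genes with at least 200 CPM and 10 cells in the higher library and 50 UMIs in both libraries together. The cells, lists and rules were chosen with earlier results of these data known. Promoters came from RefSeq. The counting was tested on simulated data, and alternatives to the filters, weights and denominators were computed. Some genes of the lists enter the sums and counts but are not reported here.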

Additional observations from a re-analysis of the deposited data

How the results depend on the processing

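The lower share of enteroendocrine cells in knockout kept its direction under every alternative computed, from 0.528 with epithelial cells as denominator to 0.705 without a mitochondrial limit. Its interval reached above 1 with a mitochondrial limit of 10% (0.685, 0.444 to 1.06), with the limit on protein-coding mitochondrial genes (0.702, 0.485 to 1.01) and with none. The share with Tph1 moved within its interval. The 139 genes at least 2-fold higher became 255 at a minimum of 50 CPM, 73 at 200 CPM, 71 with cells weighted equally and 34 with a hormone minimum of 2%. The 24 lower became 110 and 6 at those CPM limits and 40 with the rule genes outside the denominator. Genes 4-fold above other epithelial cells became 887 and 703 at 20 CPM, 111 and 86 at 200 CPM, and 606 in knockout with equal weight.

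Alternatives chosen after seeing the data were no mitochondrial limit, leaving out enterocyte-rich cells or the deepest cell, and splitting by Tph1. Without the enterocyte-rich cells 34 genes were higher (12 of the 139, counting those that still met the CPM and UMI minimums) and 30 lower (7 of the 24). Among Tph1 cells 92 were higher (36 of the 139) and 31 lower (3 of the 24). Among the others 295 were higher (127 of the 139) and 123 lower (20 of the 24). Among the named and listed genes past 2-fold in either direction, those that crossed 1-fold without the enterocyte-rich cells were Alpi (0.531), Cyp4f14 (0.616), Fabp1 (0.427), Gda (0.594), Lct (0.863), Maoa (0.496), Maob (0.726), Mttp (0.579), Slc51a (0.484) and Slc5a1 (0.844). Among the same named and listed genes, with a hormone minimum of 2%, Fabp1 (0.489) and Maoa (0.697) crossed it, and in Tph1 cells Fabp1 (0.583), Maoa (0.988) and Iapp (7.51) did. Beyond the dropped cells, the cause was not tested. No paired analysis was possible because each genotype had 1 library.

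Depth limits the rarer genes, since 0 UMIs still allows 7.26 CPM in control and 5.71 CPM in knockout.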

Other observations

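The genes that were higher in the peptide cells than in the Tph1 cells, chosen after their values were seen, included Fabp5, a fatty acid binding protein other than those of enterocytes, which was 103-fold higher in control and 169-fold higher in knockout. Rbp4 had 232 UMIs in the peptide cells against 21 in the Tph1 cells in control, and 260 against 2 in knockout. The imprinted gene Nnat had no UMI in Tph1 cells and was at least 13.7-fold and 19.8-fold higher in the peptide cells.

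Of the hormone and transmitter genes outside the selection, Insl5, Npy, Penk, Ppy and Vip had 0 UMIs in the enteroendocrine cells of both libraries. Gast had 1 UMI in control and 0 in knockout, and Gal had 2 and 1. Ucn3, a peptide of the corticotropin-releasing family, had 34 UMIs in 8 control cells and 30 UMIs in 14 knockout cells. The serotonin transporter Slc6a4 was at 24.2 and 32.4 CPM in the enteroendocrine cells against 34.6 and 39.3 CPM in the other epithelial cells. That order is uncertain, since Slc6a4 had 1 UMI in Tph1 cells and 9 in the peptide cells in control, and 4 and 13 in knockout. Slc18a1 was at 356 and 360 CPM against 5.81 and 6.58 CPM. Genes of Notch signalling and progenitors summed to 264 and 206 CPM against 166 and 161 CPM, led by Hes6.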
